A study of Homo sapiens with 12 samples.

Results

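The genes described here are 10 members of signalling by the transforming growth factor beta (TGF-beta) superfamily: the ligand gene BMP4, the inhibin and activin subunit genes INHA and INHBB, the receptor genes ACVR2B and TGFBR3, the inhibitory SMAD genes SMAD6 and SMAD7, and the target genes ID1, ID2 and ID3. They were taken by name from a table of gene counts, in which each of the 10 names had exactly 1 row among 60670 gene rows with counts. Of the 10, INHBB had too few counts to pass the filter, and the other 9 were tested. The counts come from H295R, an established line of human adrenocortical carcinoma cells that makes steroid hormones, and the study compared cells that differ in DLK1, a membrane protein related to the ligands of Notch. The groups were DLK1 knock-down cells (KD), DLK1 over-expressing cells (OE) and cells labelled wild type (WT), with 4 RNA sequencing libraries each, numbered 3 to 6. All were H295R cells harvested at 70% confluence. How DLK1 was lowered or raised, whether KD and OE cells are single clones, and whether WT cells carried an empty vector are not stated in the labels.

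Ligands of the superfamily bind pairs of type I and type II receptor kinases, which phosphorylate SMAD transcription factors. Bone morphogenetic proteins (BMPs) act mainly through SMAD1, SMAD5 and SMAD9, while activins and TGF-beta act mainly through SMAD2 and SMAD3. ID1, ID2, ID3 and SMAD6 are classic early targets of the BMP branch, and SMAD7 is a target of both branches. SMAD6 and SMAD7 in turn inhibit the receptors, so that they close a negative feedback loop. Inhibin, a dimer of the INHA product with an activin beta subunit, opposes activin by holding type II receptors in a complex with betaglycan, the product of TGFBR3. The adrenal cortex makes inhibin, and loss of the gene in gonadectomised mice leads to adrenocortical tumours.

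The libraries held between 9303266 and 13797397 counts. DLK1 itself averaged 1338 ± 113 CPM (a gene's counts scaled to a common library size, after adjustment of library sizes by the TMM method) in KD, 3213 ± 148 CPM in OE and 2675 ± 132 CPM in WT (SD, n = 4 each), with no overlap between any of the groups. KD replicate 3 stood apart from its group. Its chi-square per degree of freedom against the other KD libraries was 6.16 to 10.95, whereas all other pairs of libraries within a group lay between 2.73 and 4.225. All 10 adrenocortical markers on the marker list, NR5A1, STAR and CYP11A1 among them, passed the filter on low counts. Their summed level was 3259 to 3744 CPM in KD, 3648 to 3836 CPM in OE and 3762 to 3911 CPM in WT. SCARB1, at a mean of 2099 CPM in KD, 2138 CPM in OE and 2194 CPM in WT, made up most of this sum. In KD against WT 1 of the 10 was called higher (HSD3B2) and 3 lower (STAR, CYP17A1 and FDX1; edgeR, adjusted p under 0.05). Of all genes 9.06% were called. For OE against WT 2 were higher (HSD3B2 and CYP21A2) and 1 lower (STAR), beside 5.00% of all genes. For OE against KD 5 were higher (STAR, CYP11A1, CYP17A1, CYP21A2 and FDX1) and 0 lower, beside 13.8%. The part of these shifts in the results below was not tested. In bulk RNA, fewer cells of a type and less RNA per cell cannot be told apart. Markers of other cell types were low. The 7 endothelial markers summed to 0.712 to 2.18 CPM over all libraries, with CDH5 at 0, and the 7 immune markers to 0.985 to 3.52 CPM, with CD3E at 0. The 8 fibroblast markers summed to 15.8 to 22.8 CPM in KD, 16.9 to 19.9 CPM in OE and 17.5 to 22.0 CPM in WT. COL1A2 was at 0, and COL1A1, at a mean of 17.4 CPM in KD, 17.7 CPM in OE and 17.98 CPM in WT, made up most of the sum. The labels do not say that libraries came from separate cultures, so the p-values below measure only the spread between these libraries, which may be technical.

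In KD cells, BMP4 rose together with ID1, ID3, SMAD6 and SMAD7, by 1.35-fold to 1.73-fold against WT, while the coreceptor gene TGFBR3 fell to 0.882 of its WT level. INHA, ID2 and ACVR2B were not called in KD against WT. Of the 9 genes tested, 5 were thus higher and 1 lower in KD (edgeR quasi-likelihood test, adjusted p under 0.05), against 3.84% higher and 5.22% lower among all 15916 genes tested. The median log2 fold change of the 9 was 0.44, beside 0.01 over all genes. In OE cells 0 of the 9 were called higher and 0 lower against WT, where 2.13% of all genes were higher and 2.87% lower, 5.00% in all. OE against KD, the comparison of the highest with the lowest DLK1, showed BMP4, ID1, ID3, SMAD6 and SMAD7 lower and TGFBR3 and ACVR2B higher. These 5 lower and 2 higher genes compare with 6.55% lower and 7.27% higher of all genes, and the median of the 9 was -0.43, beside -0.0023 over all genes. The 3 comparisons share their libraries in pairs and are not independent of each other. The genes were also chosen with earlier results of these data known, so the shares and medians describe this choice and are not a test of it.

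**Figure D1:**
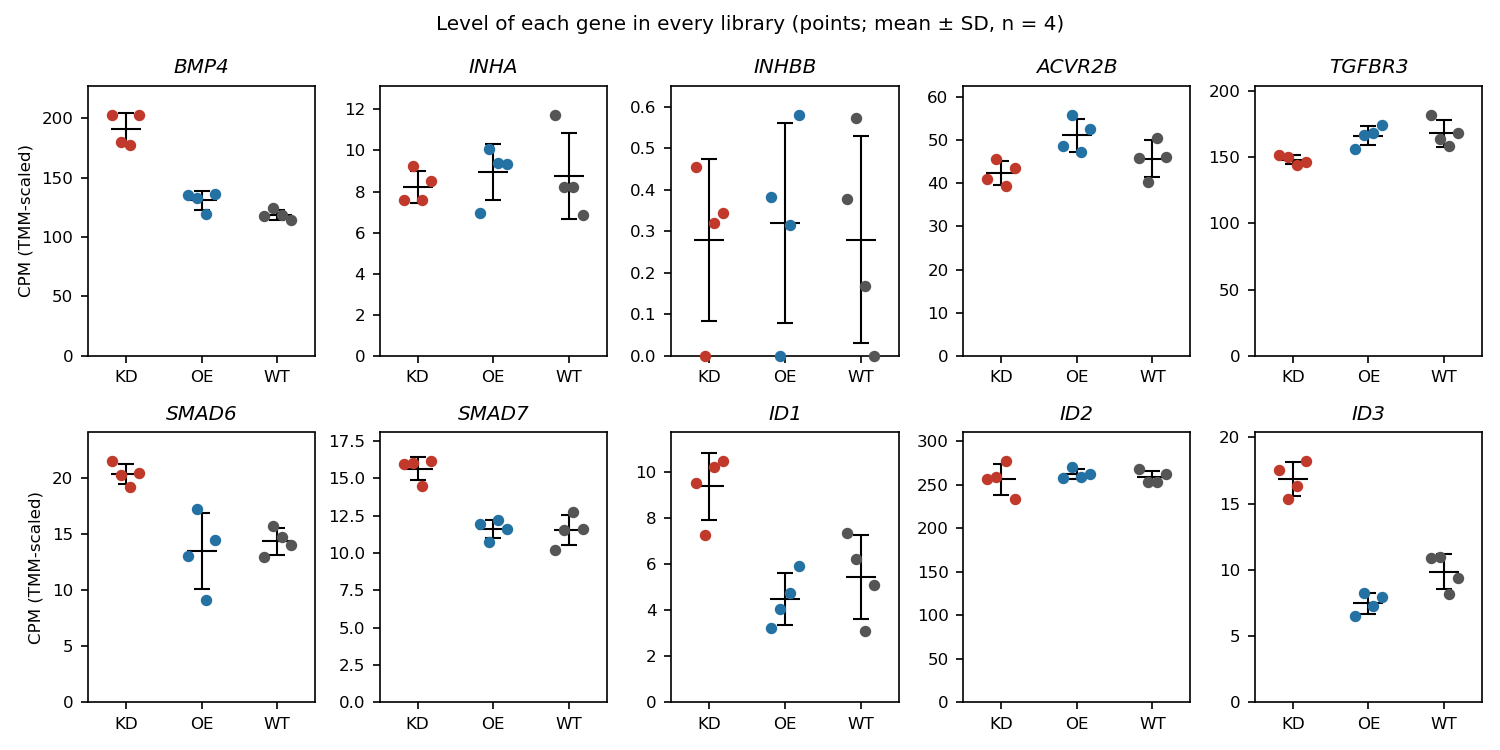
Level of each of the 10 genes in CPM (vertical axes, linear from 0) in the 4 KD, 4 OE and 4 WT libraries; points are libraries, and bars are mean ± SD. All 4 KD libraries lie above all WT libraries for BMP4, ID3, SMAD6 and SMAD7, whereas the groups overlap for INHA, INHBB and ID2.

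Since these genes moved together, the sequences around their transcription starts are given, from RefSeq (GRCh38.p14), as windows of 300 bases that run from 250 bases before to 50 after an annotated start. Capitals mark 2 short motifs that SMAD complexes are known to bind, GGCGCC and CAGAC, the second on either strand. The next 5 are the genes that rose in KD, and ID2 is shown as the family member that was not called. For BMP4 and SMAD7, which have 3 windows each in the table, the most upstream one is printed.
BMP4, chr14:53955001-53955300, minus strand: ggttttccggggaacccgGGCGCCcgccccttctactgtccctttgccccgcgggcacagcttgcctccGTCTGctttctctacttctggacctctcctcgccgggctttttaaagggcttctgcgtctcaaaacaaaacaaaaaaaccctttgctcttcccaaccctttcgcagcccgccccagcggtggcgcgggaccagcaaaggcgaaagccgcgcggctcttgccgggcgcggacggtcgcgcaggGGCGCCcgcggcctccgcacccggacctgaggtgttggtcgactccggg
ID1, chr20:31605039-31605338, plus strand: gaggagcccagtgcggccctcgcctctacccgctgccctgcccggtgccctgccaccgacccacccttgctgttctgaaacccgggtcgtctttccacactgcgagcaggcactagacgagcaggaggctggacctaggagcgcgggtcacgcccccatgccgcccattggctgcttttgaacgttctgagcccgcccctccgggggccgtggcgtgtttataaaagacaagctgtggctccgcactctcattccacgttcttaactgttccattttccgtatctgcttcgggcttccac
ID3, chr1:23559452-23559751, minus strand: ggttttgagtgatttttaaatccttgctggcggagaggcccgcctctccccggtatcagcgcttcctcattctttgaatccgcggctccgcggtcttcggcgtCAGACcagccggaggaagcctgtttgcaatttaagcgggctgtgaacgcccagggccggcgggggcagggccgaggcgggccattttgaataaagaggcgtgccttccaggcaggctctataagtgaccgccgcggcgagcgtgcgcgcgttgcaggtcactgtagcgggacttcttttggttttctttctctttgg
SMAD6, chr15:66701986-66702285, plus strand: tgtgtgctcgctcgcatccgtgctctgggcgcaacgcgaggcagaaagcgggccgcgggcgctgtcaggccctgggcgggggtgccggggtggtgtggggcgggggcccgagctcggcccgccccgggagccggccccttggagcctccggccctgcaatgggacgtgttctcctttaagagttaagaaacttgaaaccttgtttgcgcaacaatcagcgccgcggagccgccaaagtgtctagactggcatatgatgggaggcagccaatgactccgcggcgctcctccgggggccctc
SMAD7, chr18:48950916-48951215, minus strand: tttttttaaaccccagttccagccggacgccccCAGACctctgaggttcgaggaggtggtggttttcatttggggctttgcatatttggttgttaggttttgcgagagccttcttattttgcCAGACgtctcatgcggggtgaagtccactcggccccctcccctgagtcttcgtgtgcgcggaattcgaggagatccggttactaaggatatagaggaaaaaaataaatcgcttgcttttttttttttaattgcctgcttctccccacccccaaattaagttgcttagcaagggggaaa
ID2, chr2:8681806-8682105, plus strand: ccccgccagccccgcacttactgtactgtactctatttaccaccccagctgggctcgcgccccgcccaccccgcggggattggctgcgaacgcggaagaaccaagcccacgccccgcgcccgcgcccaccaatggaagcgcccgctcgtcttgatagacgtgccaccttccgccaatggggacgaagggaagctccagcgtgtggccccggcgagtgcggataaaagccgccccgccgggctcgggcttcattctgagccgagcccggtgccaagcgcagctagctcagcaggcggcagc

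The BMP4 window held GGCGCC 2 times and CAGAC 1 time, SMAD7 held CAGAC 2 times and ID3 1 time. For BMP4 and SMAD7 these printed windows held the most matches of their 3: both other BMP4 windows held CAGAC 1 time and no GGCGCC, and the other SMAD7 windows held CAGAC 1 and 0 times and no GGCGCC. INHBB, which was not tested, held GGCGCC 3 times, and the windows of TGFBR3 and ACVR2B held neither motif. The windows of ID1, SMAD6 and ID2 held neither motif. Of all 35116 windows of this length in the table, 19.2% held GGCGCC on either strand (the motif reads the same on both), 45.3% held CAGAC and 7.87% held both. In ID3 the CAGAC at bases 104 to 108 of the window overlaps a match on the opposite strand, at bases 101 to 105, to TGACG, the core of the cyclic AMP response element. On either strand TGACG stood in 24.6% of all windows, and the INHA window (chr2:219572060-219572359, plus strand) held TGACG 1 time, at bases 113 to 117, and CAGAC 2 times. AAGGTCA, the core that NR5A1 binds, was on either strand in 3.92% of all windows and among these genes only in the most downstream SMAD7 window. A match is a string of letters and does not show that a factor binds there, and a missing match covers these 300 bases alone.

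Among the ligands, BMP4 (ENSG00000125378, GRCh38 chromosome 14, 53949736 to 53958761, minus strand) encodes bone morphogenetic protein 4. It had 202.8, 179.6, 177.3 and 202.5 CPM in KD replicates 3 to 6 and 117.8, 124.4, 118.3 and 114.0 CPM in WT replicates 3 to 6. Every KD library was thus well above every WT library. The means were 191 ± 13.99 CPM in KD and 119 ± 4.27 CPM in WT (SD, n = 4 each), a log2 fold change of 0.68 ± 0.05 (± standard error; edgeR, adjusted p = 2.1e-14), and BMP4 ranked at place 12 of all genes by p in this comparison. In OE it had 135.5, 132.7, 119.2 and 136.1 CPM. Replicate 5 lay within the WT range and the other OE libraries above it. BMP4 was not called in OE against WT (log2 fold change 0.14, 95% interval 0.03 to 0.25, edgeR adjusted p = 0.137). Against KD it was lower in OE by 0.54 on the log2 scale (standard error 0.05, edgeR adjusted p = 2.73e-11), and no OE library reached a KD library.

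INHA (ENSG00000123999, chromosome 2, 219569162 to 219575713) encodes the alpha subunit of inhibin. Its CPM were 7.58, 9.22, 7.60 and 8.497 in KD, 6.96, 10.1, 9.41 and 9.36 in OE, and 11.7, 8.23, 8.20 and 6.86 in WT. The WT libraries alone spanned the whole range of both other groups. INHA was not called in any of the 3 comparisons (edgeR, adjusted p = 0.807 for KD and 0.952 for OE against WT, and 0.697 for OE against KD). Its log2 fold change had a 95% interval of -0.43 to 0.24 for KD against WT and of -0.30 to 0.37 for OE against WT. Changes within these bounds are compatible with these libraries, and the bounds are not the smallest change that could have been called. INHA overlaps OBSL1 on the opposite strand in the annotation (GENCODE release 29), with no shared exon.

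INHBB (ENSG00000163083, chromosome 2, 120346143 to 120351808) encodes the beta B subunit of inhibin and activin. It was near the limit of detection, with 6, 0, 4 and 4 counts in KD, 4, 0, 4 and 8 in OE and 4, 6, 2 and 0 in WT. The groups overlapped, and each had 1 library with 0 counts. A count of 0 allows up to 3 counts, no difference was detectable at this depth, and no fold is given. INHBA, which encodes the beta A subunit, was called lower in OE at 0.961 ± 0.421 CPM, against 2.42 ± 1.11 CPM in KD (log2 fold change -1.33 ± 0.40, edgeR adjusted p = 0.017). These libraries overlapped, and the call was lost without KD replicate 5 or 6 (adjusted p = 0.0919 and 0.0856) and without OE replicate 3 or 6 (0.0587 and 0.0827). DESeq2 gave INHBA no adjusted p in this comparison, so that test neither kept nor lost the call.

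Of the receptors, TGFBR3 (ENSG00000069702, chromosome 1, 91680343 to 91906335, minus strand) encodes betaglycan, which binds inhibin and TGF-beta ligands. It had 151.7, 149.7, 144.3 and 146.1 CPM in KD, 156.1, 166.7, 167.8 and 173.9 CPM in OE, and 181.7, 163.4, 158.1 and 168.0 CPM in WT. KD libraries were lower than all others, and OE and WT libraries overlapped. TGFBR3 fell by 0.18 ± 0.05 on the log2 scale in KD against WT (edgeR, adjusted p = 0.0132). It was 0.17 ± 0.05 higher in OE than in KD (adjusted p = 0.0161). These calls were lost without WT replicate 3 in KD against WT (adjusted p = 0.11), and without KD replicate 6 or OE replicate 6 in OE against KD (0.0513 and 0.0834).

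ACVR2B (ENSG00000114739, chromosome 3, 38453851 to 38493142) encodes a type II receptor that activins and some BMPs use. Its CPM were 40.8, 45.6, 39.3 and 43.5 in KD, 48.7, 55.8, 47.2 and 52.5 in OE, and 45.7, 40.3, 50.6 and 46.1 in WT. The WT libraries overlapped both other groups, while all OE libraries were above all KD libraries. ACVR2B was 1.21-fold higher in OE than in KD (log2 fold change 0.27 ± 0.08, edgeR adjusted p = 0.0128). That call was lost without OE replicate 4 (adjusted p = 0.078). Against WT the gene was called neither in KD (-0.11, 95% interval -0.27 to 0.05, edgeR adjusted p = 0.447) nor in OE (0.16, 95% interval 0.00 to 0.32, adjusted p = 0.285). The antisense gene ACVR2B-AS1 overlaps it without a shared exon.

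The inhibitory SMADs moved alike in KD. SMAD6 (ENSG00000137834, chromosome 15, 66702228 to 66782848), which acts chiefly on BMP receptors, had 21.5, 20.3, 19.3 and 20.5 CPM in KD and 12.96, 15.8, 14.8 and 14.04 CPM in WT. SMAD7 (ENSG00000101665, chromosome 18, 48919853 to 48952052, minus strand), which inhibits signalling by all branches of the superfamily, had 15.99, 16.01, 14.5 and 16.1 CPM in KD and 10.2, 11.6, 12.7 and 11.6 CPM in WT. In both genes every KD library was above every WT library. SMAD6 rose by 0.50 ± 0.13 (edgeR, adjusted p = 0.00875) and SMAD7 by 0.44 ± 0.13 on the log2 scale (adjusted p = 0.0219). The SMAD7 call was lost without WT replicate 3 (adjusted p = 0.0907) or KD replicate 6 (0.0598).

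In OE, SMAD6 was spread over 13.1, 17.3, 9.17 and 14.5 CPM and SMAD7 over 11.9, 10.8, 12.2 and 11.6 CPM. The SMAD6 libraries of this group reached both above and below the WT range, and those of SMAD7 stayed within it. Neither was called against WT (edgeR, adjusted p = 0.802 and 0.987). Both were lower in OE than in KD, SMAD6 with a log2 fold change of -0.60 ± 0.13 (edgeR, adjusted p = 0.000886) and SMAD7 with one of -0.43 ± 0.13 (adjusted p = 0.0161), and no OE library overlapped a KD library. The SMAD7 call was lost here without OE replicate 4 (adjusted p = 0.0535). Within a library, SMAD6 counts were 127% to 134.6% of SMAD7 counts in KD, 75.3% to 161% in OE and 116% to 136% in WT.

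**Figure D2:**
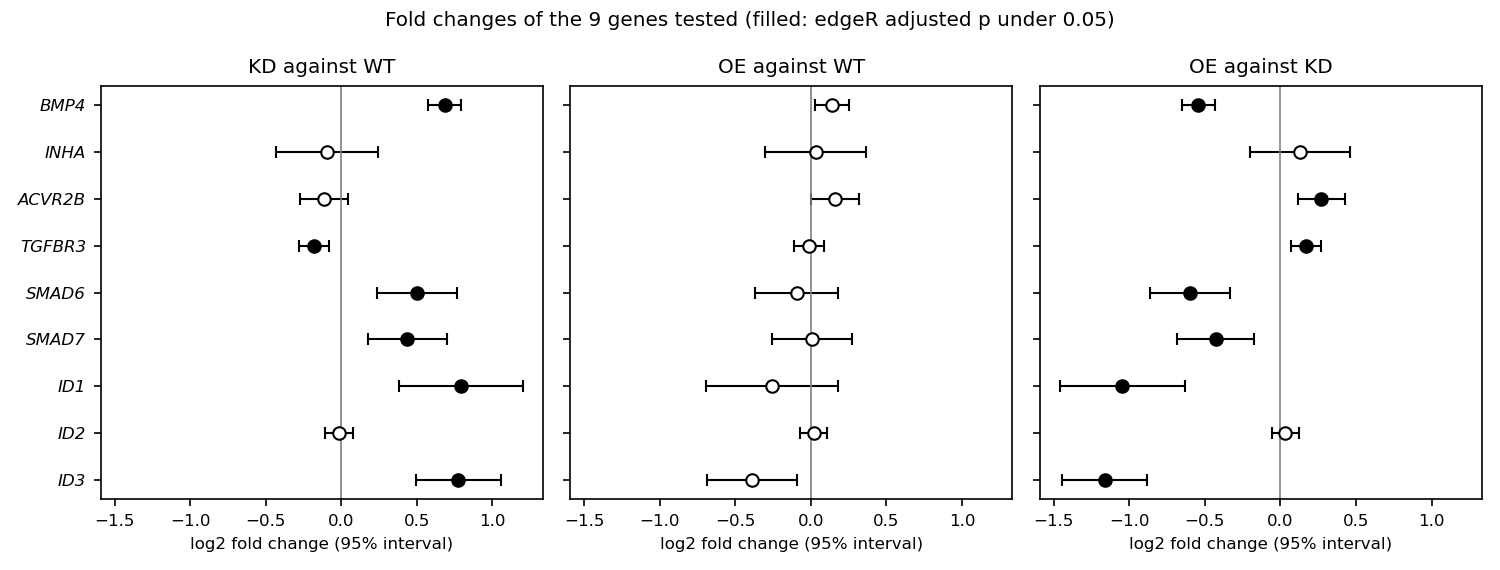
Log2 fold change (horizontal axis) with its 95% interval for the 9 tested genes in KD against WT, OE against WT and OE against KD; filled points had an edgeR adjusted p under 0.05. BMP4, SMAD6, SMAD7, ID1 and ID3 lie right of 0 in KD against WT and left of 0 in OE against KD, and no point is filled in OE against WT.

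The ID genes encode helix-loop-helix proteins without a DNA-binding region, which hold class I basic helix-loop-helix factors such as the TCF3 product away from DNA. ID3 (ENSG00000117318, chromosome 1, 23557918 to 23559794, minus strand) had 17.6, 15.3, 16.3 and 18.2 CPM in KD, 6.49, 8.26, 7.27 and 7.98 CPM in OE, and 10.9, 11.0, 8.20 and 9.36 CPM in WT. KD stood above both other groups without overlap, and the highest OE library lay just above the lowest WT library. ID3 rose by 0.78 ± 0.14 on the log2 scale in KD against WT (edgeR, adjusted p = 6.12e-05). In OE against WT it was not called (-0.39, 95% interval -0.69 to -0.09, edgeR adjusted p = 0.13). In OE against KD its log2 fold change was -1.16 ± 0.14 (adjusted p = 1.02e-08).

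ID1 (ENSG00000125968, chromosome 20, 31605283 to 31606515) had 126, 87, 128 and 122 counts in KD, 34, 47, 60 and 82 in OE, and 78, 65, 37 and 47 in WT. Scaled to library size these were 9.55, 7.29, 10.2 and 10.5 CPM in KD, 3.24, 4.05, 4.74 and 5.95 CPM in OE, and 7.38, 6.22, 3.10 and 5.12 CPM in WT. KD replicate 4 lay just below WT replicate 3, and otherwise KD was above WT, in 15 of 16 pairs of libraries. ID1 rose by 0.79 ± 0.20 in KD against WT (edgeR, adjusted p = 0.00744), and this call was lost without WT replicate 5, the lowest WT library (0.59, adjusted p = 0.075). In OE against KD the log2 fold change was -1.05 ± 0.20 (adjusted p = 0.000185), with no overlap, and in OE against WT it was -0.26 (95% interval -0.69 to 0.18, adjusted p = 0.606).

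ID2 (ENSG00000115738, chromosome 2, 8678845 to 8684453) had the highest level per length of the 9 tested genes. It had 256.2, 258.1, 276.5 and 233.5 CPM in KD, 258.0, 270.2, 258.5 and 261.7 CPM in OE, and 267.6, 252.9, 252.4 and 261.7 CPM in WT. All groups overlapped, and their means of 256 ± 17.6, 262 ± 5.65 and 259 ± 7.33 CPM in KD, OE and WT differed by less than the spread within KD. The 95% interval of its log2 fold change was -0.10 to 0.08 in KD against WT, -0.07 to 0.11 in OE against WT and -0.06 to 0.12 in OE against KD. ID2 shares exon sequence with the antisense gene ID2-AS1, and since the strand setting of the counting is not given, their reads cannot be told apart with certainty.

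Because counts of the same library share its depth, the ratio of 2 genes within a library does not depend on how libraries are scaled. ID3 counts were 5.90% to 7.79% of ID2 counts in KD, 2.515% to 3.06% in OE and 3.25% to 4.35% in WT, so that the 3 groups did not overlap. In CPM, however, ID3 overlapped between OE and WT and was not called there (edgeR, adjusted p = 0.13). The CPM ranges of OE and WT were apart for 11.8% of all genes, and the share of gene ratios that lie apart was not counted. ID1 counts were 2.83% to 4.48% of ID2 counts in KD, 1.26% to 2.27% in OE and 1.23% to 2.76% in WT. Here KD was above the other groups, which overlapped each other. ID3 counts ranged from 159% to 210% of ID1 counts in KD, 134% to 204% in OE and 147% to 265% in WT, and all groups overlapped.

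Levels of different genes are set beside each other here as CPM per kilobase of annotated exon, averaged over the 12 libraries (± SD, n = 12). ID2 stood at 117 ± 4.85 CPM per kilobase, above 98.5% of the 15779 tested genes with a known length. BMP4 followed at 47.6 ± 11.0, above 94.6%, and TGFBR3 at 18.5 ± 1.33, above 82.9%. The other tested genes were of middling abundance, namely ID3 at 6.35 ± 2.38, ID1 at 5.23 ± 2.10, INHA at 4.93 ± 0.800, ACVR2B at 2.94 ± 0.319, SMAD7 at 2.57 ± 0.425 and SMAD6 at 1.88 ± 0.436. In this order the spreads of ID3, ID1 and INHA overlap, and those of ACVR2B, SMAD7 and SMAD6 each overlap with the next. Annotated exon length stands in for the transcripts present, so the order is approximate. ID2, the ID gene that was not called, was thus far more abundant per length than ID1 and ID3.

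**Figure D3:**
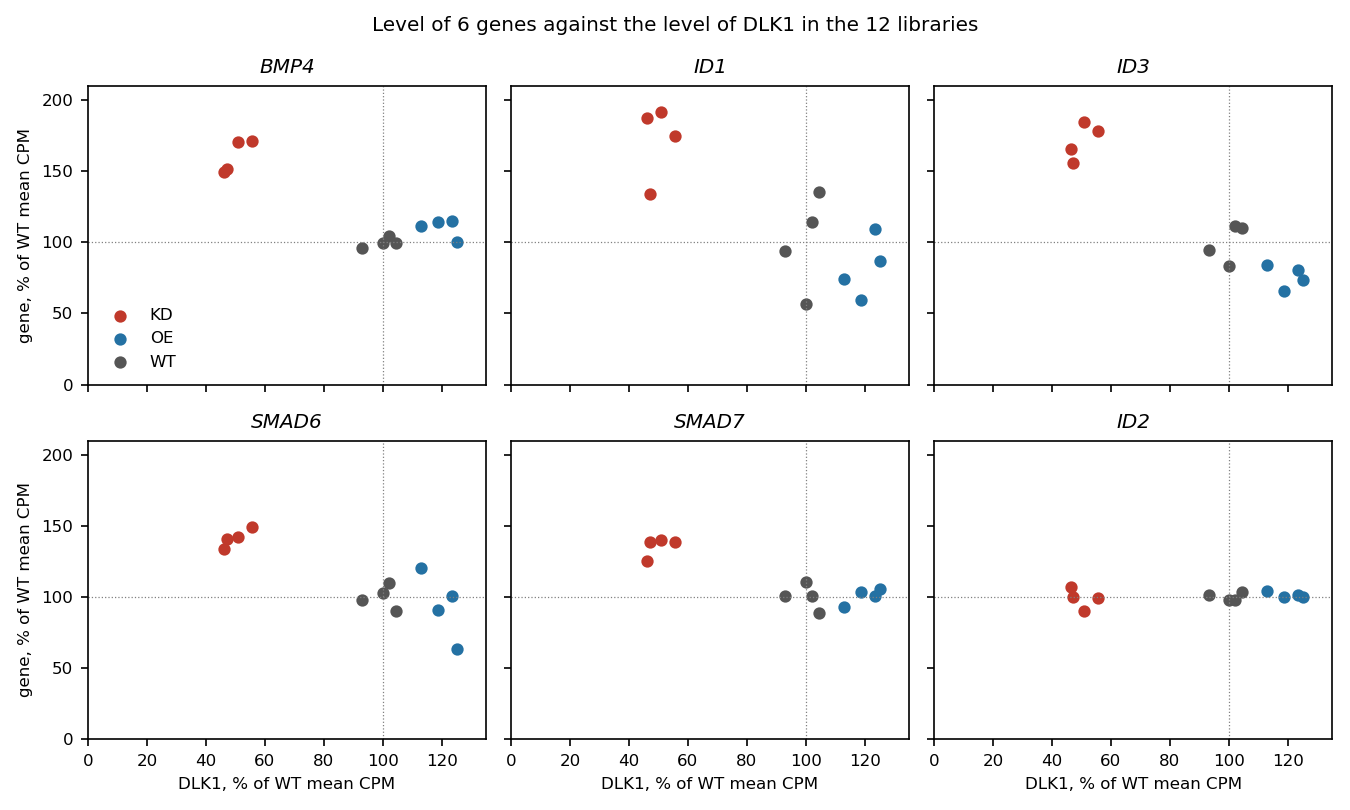
Level of BMP4, ID1, ID3, SMAD6, SMAD7 and ID2 in each library (vertical axis, percent of the WT mean CPM) against DLK1 in the same library (horizontal axis, percent of the WT mean CPM); colours give the group. BMP4 is at 149.5% to 171% in KD, 100% to 115% in OE and 96.2% to 105% in WT, while ID3 is at 156% to 184.5% in KD, 65.8% to 83.8% in OE and 83.2% to 112% in WT.

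In OE cells 0 of the 9 were called against WT with edgeR or with DESeq2, and 3 lay under 0.05 with edgeR before adjustment, namely BMP4, ID3 and ACVR2B, where 17.4% of all genes lay under it. BMP4 was on the higher and ID3 on the lower side, but neither was called. The log2 fold change of DLK1 itself was 0.26 ± 0.05 in OE against WT (edgeR, adjusted p = 0.00693) and -0.999 ± 0.05 in KD against WT (adjusted p = 4.07e-09). For 0 of the 9 genes were the OE and WT ranges apart, where 5.71% of all genes were wholly higher and 6.09% wholly lower in OE, 11.8% in all. In KD against WT the ranges were apart for 4 genes on the higher side (5.94% of all genes) and 1 on the lower side (6.86%), and in OE against KD for 5 genes on the lower side (7.77%) and 2 on the higher side (8.42%). Without KD replicate 3, the library that stood apart, the counts stayed at 5 higher and 1 lower for KD against WT, and at 5 lower and 2 higher for OE against KD.

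The rest of the pathway was followed through 13 lists by role, of which 82 genes outside the 10 were tested. In KD against WT 6 of these were higher and 5 lower, 13.4% together, where 9.06% of all genes were called. The median log2 fold change of the 82 was 0.02, beside 0.01 over all genes. Calls that held under all 18 alternative settings were those of 6 genes. FST, for follistatin, which traps activins, rose to 35.0 ± 3.17 CPM in KD, against 24.2 ± 2.69 CPM in WT (log2 fold change 0.54 ± 0.10, edgeR adjusted p = 0.000122). GDF10, for a BMP-related ligand, was at 6.08 ± 2.85 CPM in KD and 2.60 ± 0.991 CPM in WT (1.21 ± 0.28, adjusted p = 0.00338), with overlapping libraries. TSC22D1, a TGF-beta-responsive gene, rose by 0.18 ± 0.05 (adjusted p = 0.0062). It was also called higher in OE against WT (0.16 ± 0.05, edgeR adjusted p = 0.023), a call lost under 5 settings. Between OE and KD it was not called (-0.02 ± 0.05, edgeR adjusted p = 0.873). On the lower side, TGFBR1, for a type I receptor of TGF-beta, fell by 0.30 ± 0.05 (edgeR, adjusted p = 2.33e-05). SMAD5, for a SMAD of the BMP branch, fell by 0.21 ± 0.05 (edgeR, adjusted p = 0.00136). TWSG1, for a secreted BMP-binding protein, fell by 0.29 ± 0.04 (edgeR, adjusted p = 3.4e-07).

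Of 15 tested BMP-SMAD target genes, 4 were higher in KD and 0 lower, where 3.84% of all genes were higher and 5.22% lower. The 4 were ID1, ID3, SMAD6 and SMAD7. The fifth of the described genes on this list is ID2. Among the 10 targets outside the described genes, 0 were called with edgeR or with DESeq2, and 1 had an unadjusted p under 0.05 with edgeR, where 21.8% of all genes did. The 4 that rose thus all belong to the genes chosen for this description. The median log2 fold change of the 10 other targets was 0.15, beside 0.005 over all genes. Of 13 targets of the TGF-beta and activin SMADs, 4 were higher and 0 lower, beside the same 3.84% and 5.22% of all genes. They were SMAD7, FST, TSC22D1 and JUNB. The JUNB call was lost without WT replicate 6, KD replicate 3 or KD replicate 6 (edgeR, adjusted p = 0.0521 to 0.095). Of 12 intracellular brakes such as SMURF1 and SKI, 0 were called with edgeR or with DESeq2 and 4 had an unadjusted edgeR p under 0.05, against the same 21.8% of all genes. Of 8 candidate regulators of INHA, 1 was higher and 0 lower, 12.5% together, where 9.06% of all genes were called. It was NR4A1, a call lost when KD replicate 3, 4 or 6 or WT replicate 3 or 4 was left out (edgeR, adjusted p = 0.0523 to 0.0989).

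In OE against WT, 4 of the 82 genes were higher and 4 lower, 9.76% together, where 5.00% of all genes were called. Of these calls, 4 held under all 18 settings. SMAD3, for a SMAD of the activin and TGF-beta branch, rose to 105 ± 4.66 CPM in OE, against 86.8 ± 2.28 CPM in WT (0.28 ± 0.06, edgeR adjusted p = 0.00154), and CDKN1A, for the cell cycle inhibitor p21, rose by 0.35 ± 0.05 (adjusted p = 5.75e-06). LTBP1, for a protein that tethers latent TGF-beta to the matrix, fell by 0.26 ± 0.04 (edgeR, adjusted p = 7.8e-06). TWSG1 fell in OE too, by 0.25 ± 0.04 (edgeR, adjusted p = 9.12e-06), so that it was lower than WT in both engineered groups, which share the WT libraries.

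In OE against KD, 6 of the 82 were higher and 13 lower, 23.2% together, where 13.8% of all genes were called. FST was at 19.8 ± 1.85 CPM in OE and 35.0 ± 3.17 CPM in KD (-0.83 ± 0.10, edgeR adjusted p = 1.32e-08). SMAD9, a SMAD of the BMP branch that BMP signalling also induces, was at 10.7 ± 1.04 CPM in OE and 15.2 ± 2.14 CPM in KD (-0.51 ± 0.13, adjusted p = 0.00557). ACVR1, for a type I receptor of BMPs, was lower in OE by 0.37 on the log2 scale (standard error 0.09, edgeR adjusted p = 0.00238). AMHR2, the type II receptor of anti-Müllerian hormone, was higher at 23.3 ± 1.74 CPM in OE, against 14.6 ± 1.495 CPM in KD (0.67 ± 0.12, edgeR adjusted p = 2.63e-05). TCF3, for a partner that ID proteins bind, was lower in OE (-0.26 ± 0.06, edgeR adjusted p = 0.00132). JUNB and LTBP1 were lower in OE as well, and TGFBR1, CDKN1A and NEDD4L higher, with edgeR adjusted p-values of 3.05e-07 for CDKN1A to 0.00493 for TGFBR1. Of the 19 calls, these 10 held under all 18 settings. The fibroblast marker COL3A1 was also lower in OE than in KD, at 0.527 ± 0.438 CPM in OE and 2.18 ± 0.983 CPM in KD, with overlapping libraries, and its part in these results was not tested.

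**Figure D4:**
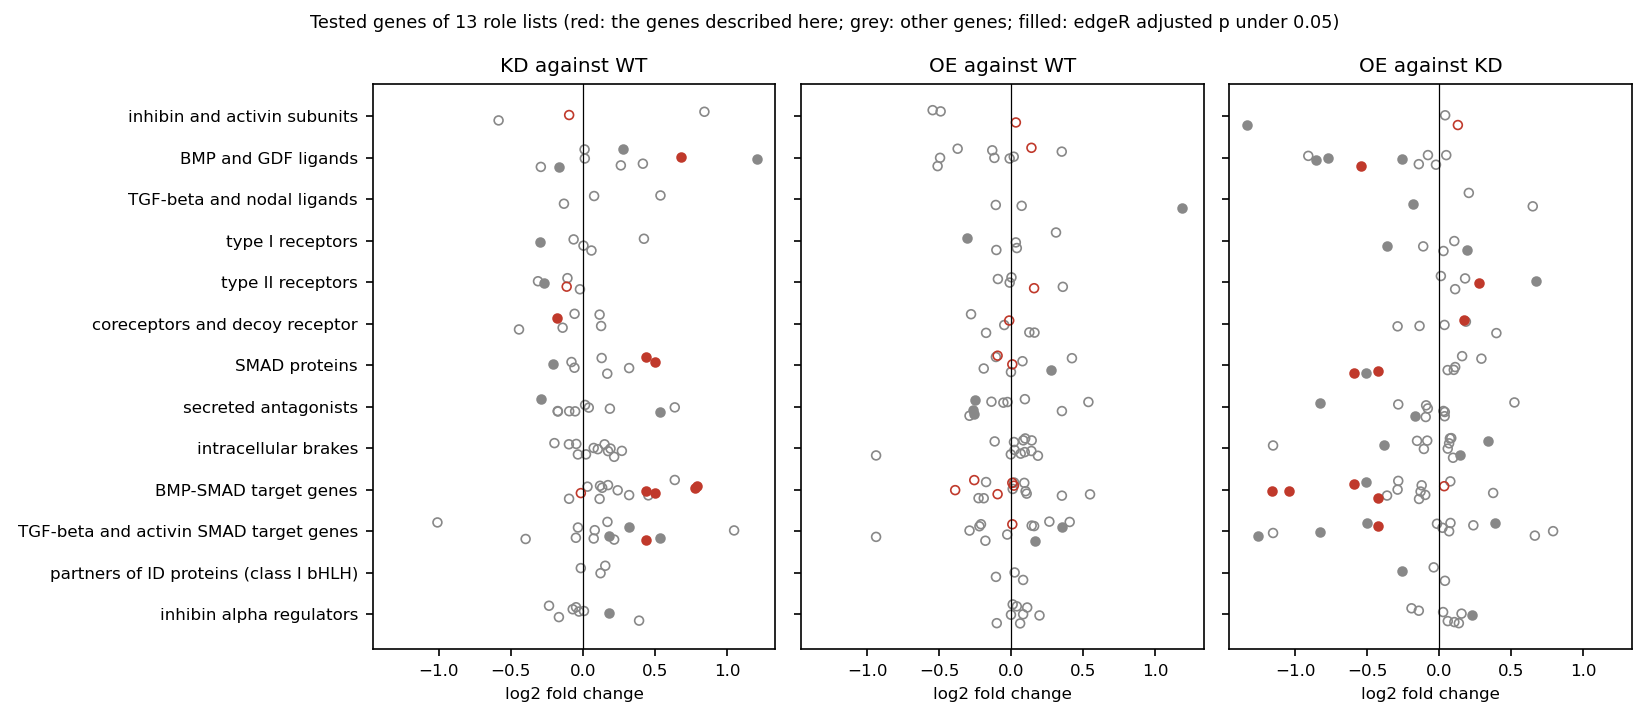
Log2 fold change (horizontal axis) of every tested gene of the 13 role lists (rows) in KD against WT, OE against WT and OE against KD; red marks the genes described here, grey the 82 other genes, and filled points had an edgeR adjusted p under 0.05. In OE against KD 5 of the 15 BMP-SMAD target genes lie left of 0 as filled points and 0 to the right, where 6.55% of all genes were lower; 4 of the 5 are genes described here, and of the 10 other targets 1, SMAD9, was called.

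By the pattern of log2 CPM over the 12 libraries, the genes most like BMP4 were SLC7A8, for an amino acid transporter (Pearson r = 0.97), CTSZ, for the protease cathepsin Z (r = 0.97), and GDA, for guanine deaminase (r = 0.97). The libraries form 3 groups of 4 and KD has the highest mean in these genes, so the values describe a shared group pattern. SLC7A8 averaged 228 ± 9.26 CPM in KD, 169 ± 3.58 CPM in OE and 161 ± 5.57 CPM in WT, and CTSZ 97.1 ± 5.13, 50.5 ± 2.73 and 46.0 ± 2.54 CPM in KD, OE and WT. GDA was low, at 2.02 ± 0.546, 0.94 ± 0.161 and 0.855 ± 0.0827 CPM in KD, OE and WT. It was called in KD against WT (edgeR, adjusted p = 0.0426) and not in OE against KD (0.0525). Among the genes described here SMAD7 was the most like BMP4 (r = 0.89, place 56 of all other genes). It was followed by ID3 (r = 0.83, place 172), SMAD6 (r = 0.81, place 239) and ID1 (r = 0.73, place 585), so many other genes were more like BMP4. TGFBR3 ran the opposite way (r = -0.80). The genes most like INHA were CRACR2B (r = 0.83), PKD1P5 (r = 0.83), which is a pseudogene with close copies, and FAM162A (r = 0.81). None of these 3 was called in any of the 3 comparisons.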

How the data were processed

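Total RNA of 12 H295R libraries (4 KD, 4 OE, 4 WT) was sequenced strand-specifically as read pairs, per the labels' protocols. The authors deposited raw gene counts, whole numbers per Ensembl gene, and the submitters' processing notes list HISAT2 1.03, FastQC, DESeq2, Subread featureCounts and the build GRCh38. Which annotation was counted, with what strand setting, is not given in the sources used here. Of 60671 gene rows 1 has blank counts and was left out, as were 3 further lines without a gene name (1 holds totals).

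All 12 libraries were fitted together with edgeR 4.0.16 in R 4.3.3 (filterByExpr with minimum count 10 and minimum total 15, TMM, robust quasi-likelihood F tests). Of the genes, 15916 were tested, with 9 residual degrees of freedom among libraries and a common biological coefficient of variation of 7.38%. P-values were adjusted over all of them (Benjamini and Hochberg) within each comparison, and an adjusted p under 0.05 was a call. Standard errors are the log2 fold change over the square root of F, and 95% intervals are those of single genes. Exon lengths, coordinates and overlaps came from GENCODE release 29 (58452 identifiers found), promoter windows from RefSeq. The floor of 3 counts covers counting error only.

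The genes, lists and comparisons were chosen with earlier results of these data known. The genes named are DLK1, the 10 genes, of each role list at most 3 others with the smallest adjusted p among those called in a comparison, of which those whose calls held under all 18 settings are given together with INHBA, JUNB and NR4A1, and the 3 genes most correlated with BMP4 and with INHA. COL3A1, SCARB1 and the adrenocortical markers that were called were named after their values were seen. The alternatives were a DESeq2 1.42.0 test, DESeq2 size factors, library sizes alone, no filter, only the 2 groups compared, a replicate block, and leaving out each library.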

Additional observations from a re-analysis of the deposited data

Results flagged for a closer look

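SMAD7 in KD replicate 5 stood below the rest of its group, at 14.48 CPM against 15.99 to 16.13 CPM in the other KD libraries, a gap of 0.911 of the group's range. All 4 KD libraries were still above the highest WT library, at 12.7 CPM. This was 1 flag among 30 groups of 4 checked (10 genes in 3 groups), and chance flags about 1 in 20 groups.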

How the results depend on the processing

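The 6 calls in KD against WT kept their direction under all 18 alternatives and their call in 104 of 108 values, and the 7 in OE against KD in 122 of 126. The exceptions are the left-out libraries named in the report. Without 1 library, those of the 9 genes called higher in KD against WT ranged from 4 to 5 and those called lower from 0 to 1. In OE against KD those called lower ranged from 4 to 5 and those called higher from 1 to 2. Over all genes, 407 to 725 were higher in KD than in WT without 1 library, the fewest without WT replicate 6, and in OE against WT 237 to 466 were higher and 319 to 598 lower. With library sizes alone the higher and lower genes numbered 967 and 624 for KD against WT, in place of 611 and 831, and 487 and 369 for OE against WT, in place of 339 and 457. With only the 2 groups compared, 534 genes were higher and 702 lower in OE than in WT. Among the 9 genes, signs turned only in uncalled values. With library sizes alone the log2 fold change was 0.017 for ID2 in KD and 0.009 for TGFBR3 in OE against WT. Without 1 library, INHA ranged from -0.191 to 0.077 and ID2 from -0.053 to 0.028 in KD against WT. In OE against WT, INHA ranged from -0.065 to 0.204, SMAD6 from -0.236 to 0.056, SMAD7 from -0.048 to 0.062 and TGFBR3 from -0.041 to 0.026. In OE against KD, ID2 ranged from -0.009 to 0.07. The cause was not tested. The fits with and without pairing by replicate number were compared. Same-numbered libraries deviated together with correlations of -0.0328 to 0.0713 over genes, and 3, 2 and 0 of 4 correlated best with their own number in KD against WT, OE against WT and OE against KD, so the numbers were not taken as pairs. With the replicate block, KD against WT gave 557 higher and 770 lower genes, OE against WT gave 313 and 422, and OE against KD gave 1102 and 980. Under this block 5 genes of the 9 were higher and 1 lower in KD against WT, 0 were called in OE against WT, and 2 were higher and 5 lower in OE against KD. Depth limits INHBB, which had 0 to 8 counts in a library.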
